A study of Mus musculus with 6 samples.

Results

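Canonical Wnt feedback and target genes were followed in infarcted mouse heart under LGK-974, an oral inhibitor of Porcupine. The set holds 10 genes, named by symbol: Axin2, Lgr5, Lef1, Tcf7, Nkd1, Nkd2, Znrf3, Rnf43, Ccnd1 and Myc. All 10 were found among the 36047 genes with a transcript in the data, and all 10 passed the filter on low counts that left 20094 genes for testing.

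Porcupine attaches the lipid that Wnt proteins need in order to leave the cell. A secreted Wnt protein that binds a Frizzled receptor and its Lrp co-receptor holds back the complex that destroys β-catenin, and β-catenin then raises transcription of target genes on TCF/LEF proteins. Many of these targets act back on the pathway, which is why their transcripts are widely read as its output. In heart it is best known for its part in cardiac development, and its targets are studied in infarcts as a readout of tissue repair.

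RNA was taken from the infarct area of C57BL6 mice aged 12 weeks, 48 h after ischemia/reperfusion (I/R). The LGK-974 group was 3 mice given the inhibitor by gavage, and the DMSO group was 3 mice given the vehicle. The mice of both groups were female, and both groups underwent the surgery. No uninjured heart was compared here, so the values describe infarct tissue with and without the inhibitor. Infarct tissue holds many cell types, and fewer cells of a type cannot be told apart from less RNA per cell.

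The libraries held 41579787 to 80398211 estimated counts, of which mitochondrial transcripts took 28.2 to 53.7%. DMSO replicate 1 stood apart: its correlation with the other libraries was 0.814 to 0.912 on log2 CPM (counts scaled to library size), against 0.890 to 0.946 among the others. In that library 99.3% of 1503 olfactory, vomeronasal and taste receptor genes, which are silent in heart, had a count, and their median was 39.3 counts per kb of transcript. The other libraries had 59.7 to 88.4% of these genes with a count and medians of 3.56 to 14.3 counts per kb. The values of the members are therefore also given without DMSO replicate 1. Over all genes, the smallest adjusted p of edgeR's quasi-likelihood test was 0.368, so that 0 of 20094 genes (0.0%) passed 0.05. An unadjusted p under 0.05 was reached by 2699 genes (13.4%), and limma-voom also called 0 genes, whereas DESeq2 called 337 (1.68%). Without DMSO replicate 1 edgeR called 2 of 18547 genes (0.0108%). The median log2 fold change of all tested genes was −0.13, and −0.02 without DMSO replicate 1.

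The members did not move in one direction: 3 had a higher and 7 a lower fitted level with LGK-974, where 59.5% of all genes were lower. On CPM, transcripts of the Wnt inhibitor Nkd2 and cyclin D1 (Ccnd1) were higher in each of 3 LGK-974 mice than in any DMSO mouse. Those of the inhibitors Axin2 and Znrf3 and of the transcription factor Tcf7 were lower in each. The groups overlapped for the other 5 members. Of all tested genes, 10.7% were higher and 7.27% lower without overlap between groups, beside 2 higher and 3 lower of the 10 members. On TPM (values per transcript length, with no TMM scaling) the groups stayed apart for Nkd2. They overlapped on TPM for Ccnd1, Axin2, Znrf3 and Tcf7. No member passed an adjusted p of 0.05 in edgeR's test. The members with an unadjusted p under 0.05 were 2 higher (6.26% of all genes) and 1 lower (7.18%). The median log2 fold change of the 10 members was −0.59 against the −0.13 of all genes, and −0.11 against −0.02 without DMSO replicate 1. The count of members without overlap between groups was again 2 higher and 3 lower without that library, beside 16.9% and 11.9% of all genes (28.8% in either direction). Without that library 5 members were lower, as were 52.1% of all genes, and an unadjusted p under 0.05 was reached by Nkd2 and Ccnd1 on the higher side (7.12% of all genes) and by Axin2 on the lower side (3.89%).

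**Figure D1:**
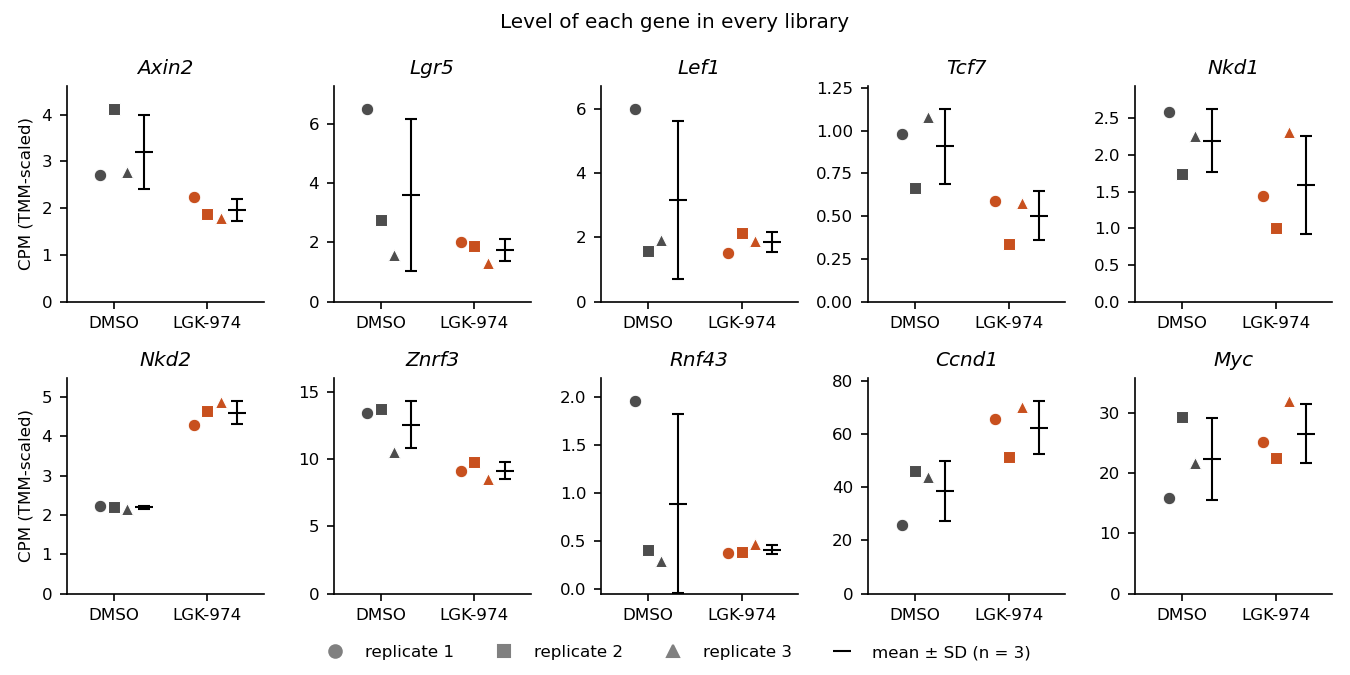
Level of each of the 10 genes in every library, in CPM (counts scaled to the TMM-adjusted library size, vertical axes starting at or just below 0), for 3 DMSO and 3 LGK-974 mice. Symbols mark the replicate number, and the black marks give the mean and SD (n = 3). Nkd2 and Ccnd1 sit higher and Axin2, Tcf7 and Znrf3 lower in all LGK-974 mice, and DMSO replicate 1 is the highest library for Lgr5, Lef1 and Rnf43.

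The starts of some of these genes are shown for the letters that TCF/LEF proteins bind. RefSeq windows of 250 bases before a start site (GRCm38.p6) were matched for 6 members, with 11 windows in all. Lgr5, Znrf3, Ccnd1 and Myc were not matched. The windows were searched on both strands for the TCF/LEF letters CTTTGNN, with A or T at both N, and for the E-box CACGTG, at which Myc binds. The TCF/LEF letters occurred in 1 of the 11 windows, a start site inside Lef1, compared with 14.8% of 32851 windows of all genes. The E-box occurred in the same window and in 6.02% of all windows. The window of Axin2 is printed as that of the most used readout, the window of Nkd2 as that of the member with the smallest p, and the window of Lef1 as the one with a match. Capitals mark the TCF/LEF letters, read here from the other strand and lying 147 bases before the start, and the E-box, which does not overlap them. The lower-case windows of Axin2 and Nkd2 hold no match, which says only that these letters are not in them.
Axin2, chr11:108920099-108920348, plus strand: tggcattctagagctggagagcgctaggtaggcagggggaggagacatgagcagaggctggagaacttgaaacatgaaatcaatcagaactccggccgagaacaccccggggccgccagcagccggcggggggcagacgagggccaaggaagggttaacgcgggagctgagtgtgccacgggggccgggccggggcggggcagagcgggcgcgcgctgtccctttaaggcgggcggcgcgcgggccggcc
Nkd2, chr13:73847632-73847881, minus strand: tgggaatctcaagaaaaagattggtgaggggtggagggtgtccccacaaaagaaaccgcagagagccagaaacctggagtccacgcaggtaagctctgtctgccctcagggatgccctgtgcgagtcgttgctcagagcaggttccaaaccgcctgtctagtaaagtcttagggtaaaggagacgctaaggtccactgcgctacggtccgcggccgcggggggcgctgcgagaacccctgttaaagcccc
Lef1, chr3:131156044-131156293, plus strand: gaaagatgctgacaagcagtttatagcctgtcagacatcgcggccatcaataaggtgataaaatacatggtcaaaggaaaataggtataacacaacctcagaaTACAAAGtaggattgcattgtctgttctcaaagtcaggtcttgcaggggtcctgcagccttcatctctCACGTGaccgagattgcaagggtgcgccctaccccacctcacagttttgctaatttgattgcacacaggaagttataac

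Axin2 is a scaffold of the complex that destroys β-catenin and is the target gene used most widely to read the pathway. It lies on chromosome 11 from 108920349 to 108950783 (GRCm38, plus strand). Its level was 2.23, 1.87 and 1.79 CPM in the 3 LGK-974 mice and 2.71, 4.12 and 2.78 CPM in the 3 DMSO mice. All LGK-974 values were below all DMSO values, with DMSO replicate 2 the highest. The means were 1.96 ± 0.235 and 3.20 ± 0.792 CPM (SD, n = 3 each), and the fitted level with LGK-974 was 0.612 times that with DMSO (95% interval 0.358 to 1.05). The log2 fold change was −0.71 (SE 0.334, edgeR adjusted p = 0.371). The exact two-sided permutation test over the 20 ways to assign the mice gave p = 0.1, the smallest it can give with 3 against 3. Without DMSO replicate 1 the difference was −0.79 on the log2 scale (95% interval −1.50 to −0.08, edgeR adjusted p = 0.404).

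The counts behind Axin2 were 189, 100 and 114 with LGK-974 and 108, 199 and 113 with DMSO. At the level of the silent receptor genes, a gene of the length of Axin2 would have 105 counts in DMSO replicate 1, which is 97.3% of what was counted there, and 8.35 to 19.2% in the other 5 libraries. With that level subtracted in every library, 3 counts were left in DMSO replicate 1 and the log2 fold change of Axin2 was −0.29 (edgeR adjusted p = 0.907). With the level subtracted and DMSO replicate 1 left out, a combination chosen after the data were seen, it was −0.83 (edgeR adjusted p = 0.379). On TPM, which divides by transcript length and has no TMM scaling, the Axin2 groups overlapped, with 0.60, 0.52 and 1.01 TPM under LGK-974 and 0.70, 1.54 and 1.05 TPM under DMSO. The TMM factors ran from 0.816 in LGK-974 replicate 2 to 1.40 in LGK-974 replicate 3. CPM and TPM therefore differ in how libraries are scaled, not only in length.

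The transcripts to which the Axin2 counts were assigned also differed between the groups. Axin2-201, the full-length coding form, held 89.2, 90.1 and 91.1% of the counts with LGK-974 and 74.8, 78.2 and 71.4% with DMSO. These shares did not overlap, as for 6.89% of 15132 genes in which the share of the leading transcript was higher with LGK-974 (3.8% were lower). No test was run on the shares, which rest on 80.6 to 168 counts for Axin2-201 per library. In DMSO replicate 1 the share is one of counts that barely exceed the silent-gene level, which was 97.3% of them. The noncoding forms Axin2-203 and Axin2-205 together with the shorter coding forms held the rest. An antisense gene on the other strand, Gm11670, shares 209 of the 5506 exonic bases of Axin2 and was not analysed here.

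Nkd2 and Nkd1, the mammalian naked cuticle proteins, bind Dishevelled and dampen the signal between receptor and β-catenin. Nkd2 lies on chromosome 13 from 73818534 to 73847631 (minus strand). It was measured at 4.29, 4.63 and 4.87 CPM with LGK-974 and at 2.24, 2.19 and 2.16 CPM with DMSO. The 3 values of each group lay close together and far from those of the other. The means were 4.60 ± 0.292 and 2.20 ± 0.0379 CPM (SD, n = 3 each), so the fitted level with LGK-974 was 2.09 times that with DMSO (95% interval 1.38 to 3.16). This is a log2 fold change of 1.06 (SE 0.257, edgeR adjusted p = 0.368, exact permutation p = 0.1). Nkd2 was the one member called by DESeq2, with a log2 fold change of 1.09 and an adjusted p of 0.0258, beside 1.43% of all genes called higher by that tool. Without DMSO replicate 1 edgeR gave 1.09 (95% interval 0.52 to 1.66, adjusted p = 0.281).

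The Nkd2 counts were 364, 248 and 311 with LGK-974 and 89, 106 and 88 with DMSO. In DMSO replicate 1 the level of silent genes at the length of Nkd2 was 94.9 counts, which is 107% of the 89 counted, and in DMSO replicates 2 and 3 it was 32.6 and 9.94%. Subtraction of that level gave a log2 fold change of 1.89 (edgeR adjusted p = 0.452), and subtraction without DMSO replicate 1 gave 1.32 (edgeR adjusted p = 0.270). The groups were apart on TPM as well, at 1.26, 1.44 and 4.30 TPM with LGK-974 and 0.44, 0.56 and 0.57 TPM with DMSO. The coding transcript Nkd2-201 held 89.8, 91.4 and 90.0% of the counts with LGK-974 and 92.9, 96.5 and 97.4% with DMSO. These shares did not overlap and were lower with LGK-974, as was the share of the leading transcript for 3.8% of 15132 genes. No test was run on them.

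Nkd1, on chromosome 8 from 88521354 to 88594884 (plus strand), did not follow Nkd2. It was measured at 1.44, 1.01 and 2.32 CPM with LGK-974 and 2.59, 1.74 and 2.26 CPM with DMSO, and the groups overlapped. Its log2 fold change was −0.47 (95% interval −1.50 to 0.57, edgeR adjusted p = 0.600). It was −0.32 without DMSO replicate 1 and 0.37 with the silent-gene level subtracted, where DMSO replicate 1 had 0 counts left. Whether Nkd1 and Nkd2 differed from each other in their response was not tested.

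Znrf3 and Rnf43 are membrane ubiquitin ligases that remove Frizzled receptors from the cell surface, and R-spondins relieve this through Lgr receptors. Znrf3 lies on chromosome 11 from 5276324 to 5444847 (minus strand). It was measured at 9.09, 9.80 and 8.52 CPM with LGK-974 and at 13.4, 13.7 and 10.5 CPM with DMSO. The highest LGK-974 value was below the lowest DMSO value. The means were 9.14 ± 0.641 and 12.5 ± 1.74 CPM (SD, n = 3 each), a fitted ratio of 0.728 (95% interval 0.547 to 0.970). On the log2 scale this is −0.46 (SE 0.178, edgeR adjusted p = 0.368, exact permutation p = 0.1). Its unadjusted p was under 0.05 with all 6 libraries and not with any one of them left out, where the log2 fold change ranged from −0.47 to −0.34. Without DMSO replicate 1 it was −0.39 (95% interval −0.80 to 0.02). Znrf3 had 429 to 772 counts per library, and the silent-gene level was 2.97 to 9.83% of them, except in DMSO replicate 1, where it was 33.5%. With this level subtracted the log2 fold change was −0.42 (edgeR adjusted p = 0.367). On TPM the Znrf3 groups overlapped, with 1.78, 1.44 and 3.22 TPM under LGK-974 and 1.82, 2.37 and 2.69 TPM under DMSO.

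Rnf43, on chromosome 11 from 87662722 to 87735539 (plus strand), had 12 to 78 counts per library, and 1 library set the sign of its difference. Its levels were 0.38, 0.39 and 0.47 CPM with LGK-974 and 1.96, 0.41 and 0.29 CPM with DMSO. The high value was that of DMSO replicate 1, and the other 5 libraries overlapped. The log2 fold change was −1.10 (95% interval −3.17 to 0.97, edgeR adjusted p = 0.538) with that library and 0.24 (95% interval −1.33 to 1.80) without it. In DMSO replicate 1 the noncoding retained-intron form Rnf43-206 held 48.2% of the Rnf43 counts, and the silent-gene level came to 73.6%. In DMSO replicate 2 no Rnf43 count was assigned to a coding transcript.

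Lgr5 is a receptor for R-spondins and marks Wnt-driven stem cells in the gut. It lies on chromosome 10 from 115450311 to 115587780 (minus strand). It was measured at 2.03, 1.88 and 1.32 CPM with LGK-974 and at 6.51, 2.75 and 1.57 CPM with DMSO. DMSO replicate 1 was the highest library and DMSO replicate 3 lay within the range of the LGK-974 mice. The log2 fold change was −1.05 (95% interval −2.30 to 0.20, edgeR adjusted p = 0.385), and −0.29 (95% interval −1.18 to 0.61) without DMSO replicate 1.

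Most Lgr5 counts did not lie on the coding form. Lgr5-205, annotated as a retained intron, held 70.3, 88.1 and 87.7% of them with LGK-974 and 40.1, 52.8 and 63.6% with DMSO. These shares did not overlap, as for 6.89% of 15132 genes in which the share of the leading transcript was higher with LGK-974. No test was run on them. Lgr5-205 itself held 121, 89.4 and 74.0 estimated counts with LGK-974 and 104, 70.4 and 41.0 with DMSO. The silent-gene level was 38.0 and 27.0% of the Lgr5 count in DMSO replicates 1 and 2, and at most 19.7% elsewhere. The coding transcript Lgr5-201 held 39.7, 12.1 and 10.4 estimated counts with LGK-974 and 110, 36.8 and 15.4 with DMSO. When the fit was made on coding transcripts alone, a choice made after the data were seen, the log2 fold change of Lgr5 was −2.34 (edgeR adjusted p = 0.331). Lgr5-205 is 2781 bases long, of which 1799 come from intron 6 of Lgr5-201 (chr10:115472036-115475173). The splice donor that is read through is shown because it separates the coding from the noncoding form, with the first bases of the intron in capitals, from GENCODE M21 transcripts on GRCm38.
Lgr5-205, chr10:115475150-115475197, minus strand: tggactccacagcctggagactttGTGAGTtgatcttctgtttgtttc

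Lef1 and Tcf7 are TCF/LEF factors through which β-catenin acts and which are themselves targets, and both are also expressed in T cells. Lef1, on chromosome 3 from 131110471 to 131224356 (plus strand), was measured at 1.51, 2.15 and 1.89 CPM with LGK-974 and at 5.98, 1.57 and 1.92 CPM with DMSO. DMSO replicate 1 was far above the others, and DMSO replicates 2 and 3 lay within the range of the LGK-974 mice. The log2 fold change was −0.77 (95% interval −2.05 to 0.50, edgeR adjusted p = 0.493) and turned to 0.10 (95% interval −0.72 to 0.91) without that library. The silent-gene level was 42.7 and 48.8% of the Lef1 count in DMSO replicates 1 and 2, and at most 27.4% elsewhere. With it subtracted the log2 fold change was −0.57. The summed level of the T cell markers was 59.9 CPM in DMSO replicate 1 and 24.8 to 31.6 CPM in the other 5 libraries. Those of the B cell and neutrophil markers were also highest there (39.0 and 84.2 CPM). Those of the monocyte and macrophage, fibroblast, endothelial, smooth muscle and cycling-cell markers were lowest there. Of 9 T cell markers tested 0 had an unadjusted p under 0.05 in edgeR and 0 an adjusted p under 0.05 in edgeR or DESeq2, and 0 of the list were at 0 in all libraries. The part of T cells in the Lef1 value was not tested.

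The retained-intron form Lef1-205 held 24.8 to 46.5% of the Lef1 counts, and coding forms held 51.0 to 67.4%. The assignment among the coding forms changed from library to library: Lef1-202 held 67.3% in DMSO replicate 3 and close to 0 elsewhere. Lef1-205 carries 3307 bases of intron 4 of Lef1-204 (chr3:131184776-131189334) in a length of 3656 bases. The antisense gene Gm43352 shares 1208 of the 8788 exonic bases of Lef1 and was not analysed here. Its read-through splice donor is shown in the same way as that of Lgr5.
Lef1-205, chr3:131184752-131184799, plus strand: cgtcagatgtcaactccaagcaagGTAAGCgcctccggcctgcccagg

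Tcf7, on chromosome 11 from 52252371 to 52283014 (minus strand), was the member with the lowest mean TPM. It was measured at 0.59, 0.34 and 0.58 CPM with LGK-974 and at 0.98, 0.66 and 1.08 CPM with DMSO. The groups did not overlap, although LGK-974 replicate 1 and DMSO replicate 2 were close. Its log2 fold change was −0.85 (SE 0.654, 95% interval −2.37 to 0.67, edgeR adjusted p = 0.519, exact permutation p = 0.1) and −0.77 without DMSO replicate 1. These levels rest on 18 to 50 counts per library. The silent-gene level exceeded the Tcf7 count in DMSO replicate 1 (70.3 against 39 counts) and was 80.1% of it in DMSO replicate 2. With that level subtracted the log2 fold change was −0.14. The Tcf7 groups overlapped on TPM, at 0.33, 0.11 and 0.54 TPM with LGK-974 and 0.30, 0.39 and 0.56 TPM with DMSO.

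**Figure D2:**
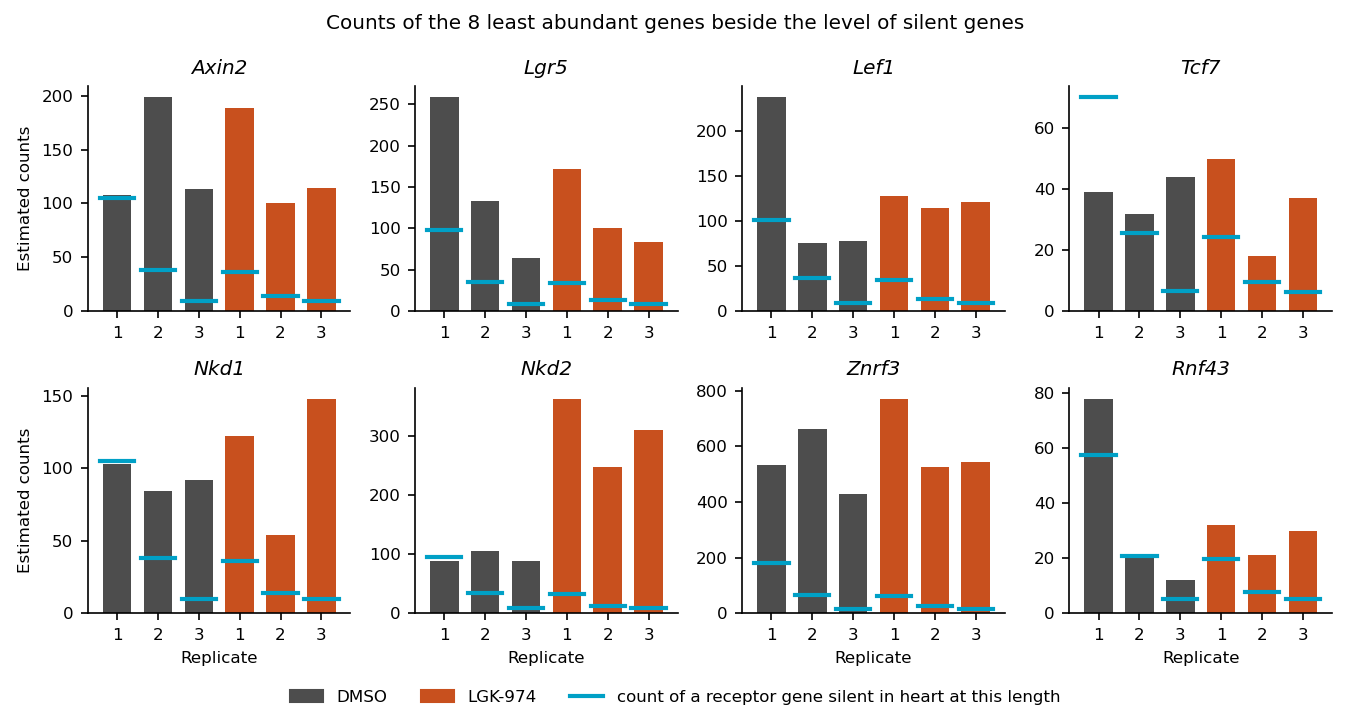
Estimated counts (vertical axes, starting at 0) of the 8 least abundant members in each library, DMSO in grey and LGK-974 in orange, with the replicate number below. The blue line is the count that a receptor gene silent in heart would have at the length of that gene. In DMSO replicate 1 the line passes the bar for Tcf7, Nkd1 and Nkd2 and lies just under it for Axin2 (105 of 108 counts), and in LGK-974 replicate 3 it is at most 17.3% of any bar.

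**Figure D3:**
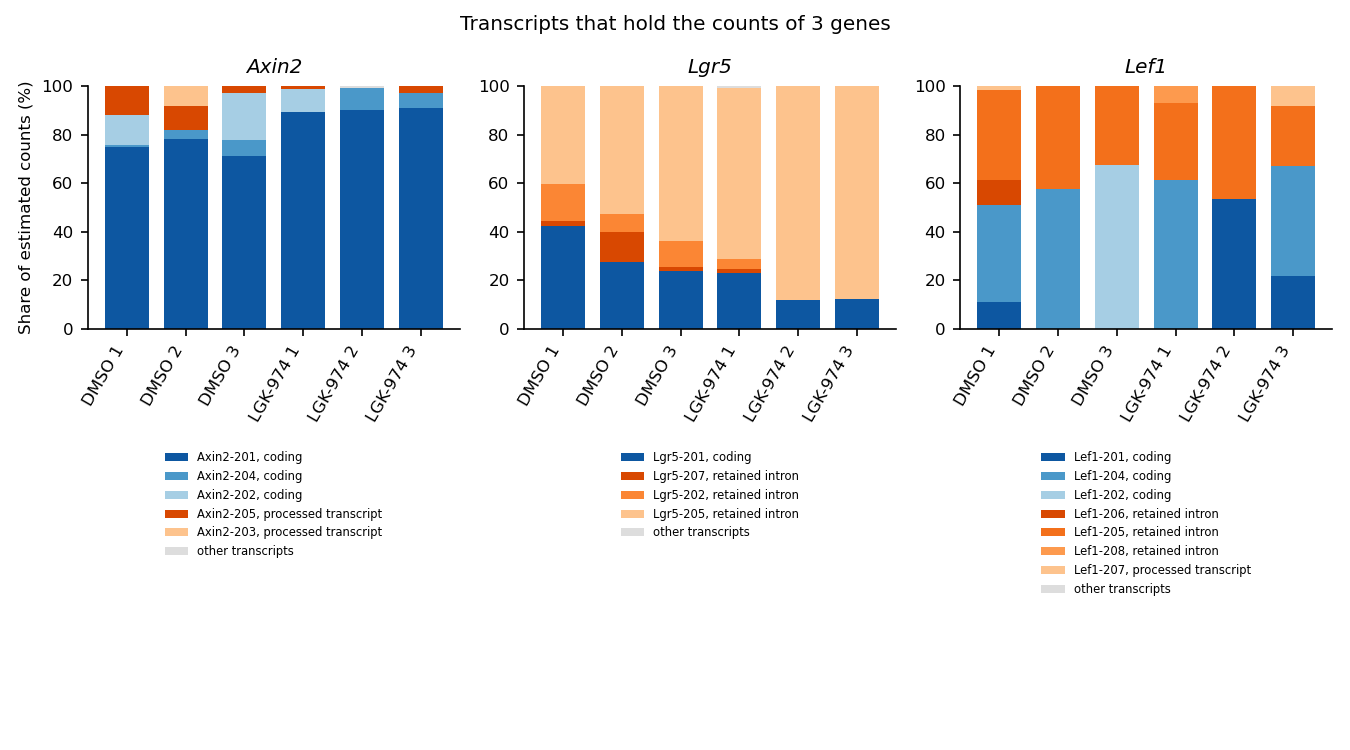
Share of the estimated counts of Axin2, Lgr5 and Lef1 assigned to each annotated transcript (vertical axis, percent) in the 6 libraries. Blue shades are coding and orange shades noncoding transcripts. Axin2-201 holds 89.2 to 91.1% with LGK-974 and 71.4 to 78.2% with DMSO, and Lgr5-205 holds 70.3 to 88.1% and 40.1 to 63.6%.

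Ccnd1 and Myc drive entry into the cell cycle and are targets of many pathways besides Wnt. Ccnd1, which encodes cyclin D1, lies on chromosome 7 from 144929931 to 144939925 (minus strand). It was measured at 65.5, 51.1 and 70.2 CPM with LGK-974 and at 25.7, 46.2 and 43.6 CPM with DMSO. The lowest LGK-974 value was above the highest DMSO value, and DMSO replicate 1 was the lowest of all. The means were 62.3 ± 9.94 and 38.5 ± 11.2 CPM (SD, n = 3 each), a fitted ratio of 1.62 (95% interval 1.08 to 2.42). In log2 terms the difference was 0.69 (SE 0.250, edgeR adjusted p = 0.368, exact permutation p = 0.1). It was 0.49 without DMSO replicate 1 (95% interval 0.09 to 0.89, edgeR adjusted p = 0.375). The unadjusted p stayed under 0.05 with each DMSO mouse or LGK-974 replicate 2 left out, and not with LGK-974 replicate 1 or 3 left out, where the log2 fold changes were 0.65 and 0.66. With 1021 to 5562 counts per library, the silent-gene level was at most 12.8% of the Ccnd1 count.

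Ccnd1 overlaps LTO1 on the other strand by 1100 of its 4709 exonic bases, and whether counting used the strand is not stated. LTO1 had 367 to 674 counts with LGK-974 and 274 to 429 with DMSO, well under those of Ccnd1. On TPM the Ccnd1 groups overlapped, with 19.6, 11.8 and 32.4 TPM under LGK-974 and 5.23, 12.4 and 12.3 TPM under DMSO. Myc, on chromosome 15 from 61985391 to 61990374 (plus strand), was measured at 25.2, 22.5 and 31.9 CPM with LGK-974 and at 15.8, 29.3 and 21.6 CPM with DMSO, and the groups overlapped. Its log2 fold change was 0.25 (95% interval −0.32 to 0.83, edgeR adjusted p = 0.609), and 0.08 without DMSO replicate 1.

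**Figure D4:**
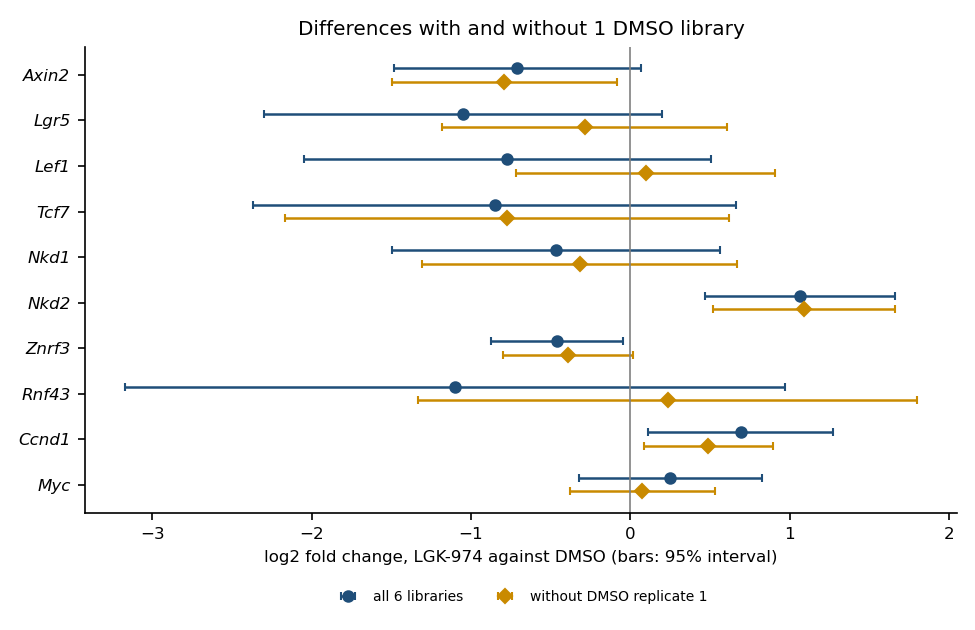
Log2 fold change of each gene, LGK-974 against DMSO (horizontal axis), from edgeR with all 6 libraries (blue circles) and without DMSO replicate 1 (yellow diamonds), with bars for the 95% interval. Nkd2 and Ccnd1 lie above 0 in both fits. Lef1 and Rnf43 pass from −0.77 and −1.10 to 0.10 and 0.24, and the interval of Axin2 leaves 0 out only without that library.

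Per length, the members fell into a high pair and a low group. The mean over the 6 libraries was 17.3 ± 11.3 TPM for Myc and 15.6 ± 9.39 TPM for Ccnd1 (SD, n = 6). Then came Znrf3 with 2.22 TPM, Nkd2 with 1.43 TPM, Lgr5 with 0.909 TPM, Axin2 with 0.901 TPM, Lef1 with 0.847 TPM, Nkd1 with 0.700 TPM, Rnf43 with 0.379 TPM and Tcf7 with 0.373 TPM. Between neighbours in this order the values of the libraries overlapped, except that the lowest Ccnd1 value lay above the highest of Znrf3. The silent-gene level was not subtracted from TPM, and in DMSO replicate 1 it exceeded the counts of Tcf7, Nkd1 and Nkd2. How evenly the library preparation captured different genes was not tested.

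On mean TPM, with the same limits, the paralogs of several members lay above the members themselves. Axin1, the paralog of Axin2, had 9.16 ± 5.14 TPM with LGK-974 and 4.07 ± 0.61 TPM with DMSO. On the count scale used for the test it was 11.9 and 11.5 CPM, with a log2 fold change of 0.04 (edgeR adjusted p = 0.923). Tcf7l2, another TCF factor, had 18.0 and 15.8 TPM, and Tcf7l1 had 6.12 and 6.67 TPM. Of the other R-spondin receptors, Lgr4 had 4.08 and 3.91 TPM and Lgr6 had 3.61 and 3.63 TPM. Ccnd2 and Ccnd3 were at 18.2 and 22.7 TPM with LGK-974 and at 13.3 and 17.1 TPM with DMSO, whereas Mycn and Mycl stayed at or under 0.615 TPM on average in both groups. Of these 9 paralogs 1 had an unadjusted p under 0.05, namely Lgr6, with a log2 fold change of −0.69 on counts (95% interval −1.34 to −0.04, edgeR adjusted p = 0.368) and overlapping groups. With DMSO replicate 1 left out it was Mycn instead, with a log2 fold change of 1.6, while Lgr6 was at −0.69 (95% interval −1.37 to 0.00).

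A wider list of 49 canonical Wnt targets, of which 42 were tested, also held genes on both sides. In it 20 genes had a higher and 22 a lower fitted level, where 59.5% of all genes were lower. An unadjusted p under 0.05 was reached by 3 higher and 4 lower, beside 6.26% and 7.18% of all genes. The median log2 fold change was −0.05, against −0.13 of all genes. With DMSO replicate 1 left out, 40 were tested, and 7 higher and 3 lower had an unadjusted p under 0.05. The shares of all genes were then 7.12% and 3.89%, and the median of the list was 0.10. Cd44, an adhesion receptor also borne by leukocytes and fibroblasts, was at 84.4 ± 8.36 CPM with LGK-974 and 44.8 ± 7.0 CPM with DMSO (SD, n = 3 each). Its log2 fold change was 0.91 (95% interval 0.50 to 1.33, adjusted p = 0.368 in edgeR and 0.00196 in DESeq2). Twist1, a mesenchymal transcription factor, had a log2 fold change of 0.79 (95% interval 0.21 to 1.38), and Irx3, a homeobox gene of the conduction system, one of −0.55 (95% interval −0.94 to −0.16), both with an edgeR adjusted p of 0.368. The log2 fold changes of Cd44, Twist1 and Irx3 without DMSO replicate 1 were 0.81, 0.82 and −0.63.

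Upstream of the members, no Wnt ligand of 13 tested and no Frizzled or Lrp receptor of 11 tested had an unadjusted p under 0.05. Wnt5b had the smallest p among the ligands, with a log2 fold change of 1.26 (edgeR adjusted p = 0.369) and no overlap between groups at 1.17 ± 0.138 and 0.488 ± 0.124 CPM. In the fit without DMSO replicate 1 the unadjusted p was under 0.05 for 1 of 12 ligands, Wnt5b (log2 fold change 1.5, edgeR adjusted p = 0.370), and for 1 receptor, Fzd4 (−0.39, edgeR adjusted p = 0.410), the latter named after its value was seen. All 5 tested R-spondin genes and receptors had negative log2 fold changes, where 59.5% of all genes were lower. Their median was −0.69 (−0.51 without DMSO replicate 1), and 1, Lgr6, had an unadjusted p under 0.05 (0 of 4 without DMSO replicate 1). Rspo2 had 118 counts in DMSO replicate 1 and 11 to 58 elsewhere, and Rspo3 had 80 there and 0 to 19 elsewhere. Of 14 nuclear partners of β-catenin 1 had an unadjusted p under 0.05, Pygo1, with a log2 fold change of −0.69 (edgeR adjusted p = 0.368). There were 3 at an unadjusted p under 0.05 without DMSO replicate 1, Pygo1, Bcl9 and Bcl9l, at −0.67, −0.35 and −0.40. Of 11 Myc partners 0 had an unadjusted p under 0.05 in edgeR's fit or an adjusted p under 0.05 in DESeq2, and 1 had an unadjusted p under 0.05 in edgeR's fit without that library, Mxd4, at −0.39 (edgeR adjusted p = 0.424). With all libraries, 1 of 18 G1/S partners of cyclin D had an unadjusted p under 0.05, Cdk6, the kinase that cyclin D1 activates, with a log2 fold change of 0.61 (adjusted p = 0.368 in edgeR and 0.0474 in DESeq2). Cdk6 was at 0.57 without DMSO replicate 1, and Rbl2, a pocket protein that holds back E2F, also had an unadjusted p under 0.05, at −0.53. Bcl9l and Rbl2 were named after their values were seen.

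Markers of other cells moved beside these genes. All 10 monocyte and macrophage markers had positive log2 fold changes, 8 of them with an unadjusted p under 0.05, and their summed level was 513 to 593 CPM with LGK-974 and 221 to 333 CPM with DMSO. Of 10 fibroblast markers 4 were higher at an unadjusted p under 0.05, with a summed 3447 to 5941 CPM against 1697 to 2501 CPM, and of 10 cycling-cell markers 7 were, with 300 to 472 CPM against 196 to 243 CPM. Of all genes, 6.26% were higher at that limit. The median log2 fold changes of the endothelial, smooth muscle, neutrophil, B cell and epicardial markers were 0.02, 0.28, −0.07, −0.28 and −0.34. Of 10 markers each, only 6 neutrophil and 9 B cell markers were tested. Among these lists, 1 neutrophil marker was lower and 1 epicardial marker higher at an unadjusted p under 0.05. Without DMSO replicate 1 the medians, in the same order, were −0.11, 0.08, 0.17, 0.32 and 0.04, so that all but the smooth muscle median changed sign. The monocyte and macrophage, fibroblast and cycling-cell markers with an unadjusted p under 0.05 then numbered 9, 4 and 8, each higher with LGK-974, beside 7.12% of all genes. None of these markers passed an adjusted p of 0.05 in edgeR, and none was at 0 in all libraries. DESeq2 called 7 monocyte and macrophage, 4 fibroblast, 3 cycling-cell and 1 epicardial marker higher with LGK-974, beside 1.43% of all genes. The part of these cells in the values of Ccnd1, Nkd2 and Cd44 was not tested. Cardiomyocyte markers, which mark the labelled tissue, summed to 41936 to 59135 CPM with LGK-974 and to 46723 to 63860 CPM with DMSO. Of the 10, 8 had a negative log2 fold change, with a median of −0.39 (−0.50 without DMSO replicate 1). The 2 others were positive, 2 markers were higher at an unadjusted p under 0.05 in edgeR, and DESeq2 called 2 higher.

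The tested genes whose log2 CPM followed that of Axin2 most closely over the 6 libraries were Aar2, Doc2b and Nrg2. Their Pearson correlations with Axin2 were 0.969, 0.968 and 0.963. They are given as a description, since they are the 3 highest among all tested genes. They rest on 6 libraries, which also differ in treatment group and depth.

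**Figure D5:**
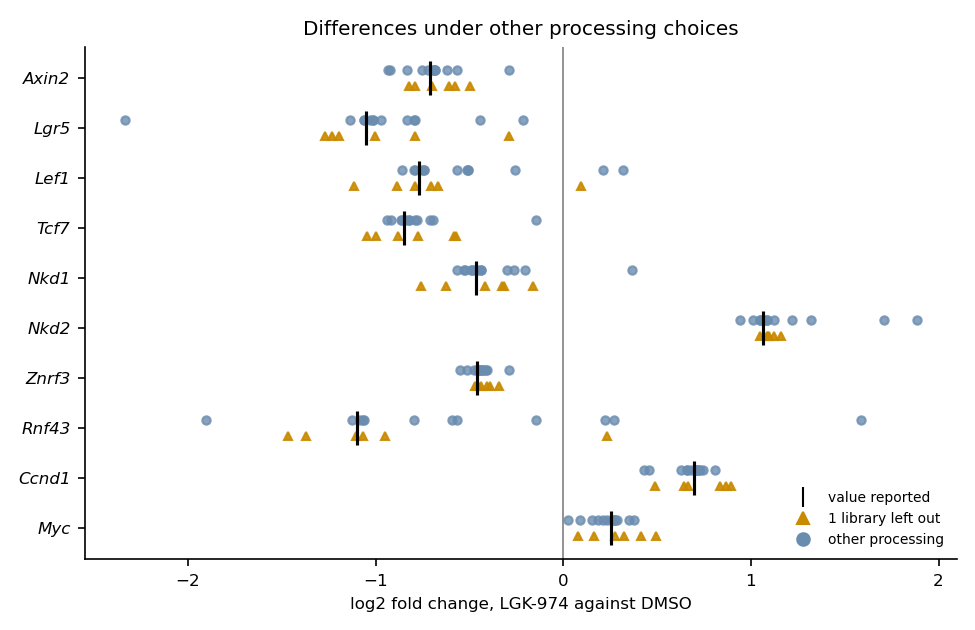
Log2 fold change of each gene, LGK-974 against DMSO (horizontal axis), as reported (black bar), with 1 library left out (yellow triangles) and with other processing (blue circles). The 19 alternatives keep Nkd2 between 0.94 and 1.89 and Ccnd1 between 0.43 and 0.89, and keep Axin2 and Znrf3 below 0, while Lef1, Nkd1 and Rnf43 cross 0.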

How the data were processed

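Per the labels, infarct RNA of 6 mice was depleted of ribosomal RNA, made into libraries by probe capture of coding sequence (TrueSeq RNA Access) and sequenced on a HiSeq2000. The authors quantified reads with Kallisto on Ensembl transcripts of GRCm38 and deposited estimated counts and TPM values of 118489 transcripts per library. Estimated counts need not be whole, since a read matching several transcripts is divided among them. The version of Kallisto and any trimming are not given in the sources used here. Groups come from the sample labels.

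Transcripts were joined to genes of GENCODE M21 (98.6% joined, holding 99.6 to 99.7% of counts), and their estimated counts were added up within each gene, then rounded. The quasi-likelihood test of edgeR 4.0.16 (R 4.3.3, limma 3.58.1) compared the treatments, with TMM scaling and a filter of 10 counts in 3 or more libraries. Adjustment followed Benjamini-Hochberg with a threshold of 0.05. Intervals are 95% and follow from the same fit. CPM are counts scaled to the TMM-adjusted size of the library, and TPM were summed per gene without TMM scaling. Groups were called separate where all CPM of one lay above all of the other. DESeq2 1.42.0 and limma-voom were alternatives, and tests were tested on simulated data.

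The members and gene lists were chosen with earlier results of these data known. All members and paralogs were named, and up to 3 genes of other lists with the smallest p. Replicate numbers occur in both groups and the deviations of same-numbered mice correlated at 0.48, −0.04 and 0.42. Since 1 of the 3 was not over 0.1, they were not treated as pairs. Precision is limited by 3 mice per group and, for members with under 100 counts, by counting. Reads shared with near-identical transcripts stay divided as deposited. The lists and the silent receptor genes were written as symbols. Python 3.11.15, NumPy 2.4.6, pandas 2.3.3 and matplotlib 3.10.9 were used for tables and plots.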

Additional observations from a re-analysis of the deposited data

How the results depend on the processing

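Over 19 alternatives, Axin2, Lgr5, Tcf7 and Znrf3 kept a negative and Nkd2, Ccnd1 and Myc a positive log2 fold change. The sign turned for Lef1 without DMSO replicate 1 (0.10), without replicate 1 of both groups (0.21) and without DMSO replicate 1 after subtraction of the silent-gene level (0.32). It turned for Nkd1 with that level subtracted (0.37), and for Rnf43 without DMSO replicate 1 (0.24), without replicate 1 of both groups (0.27), on coding transcripts only (0.22) and with subtraction but without DMSO replicate 1 (1.59). The causes were not tested. With 1 library left out, log2 fold changes ranged from −1.12 to 0.10 for Lef1 and from −1.47 to 0.24 for Rnf43. Only Nkd2 under DESeq2 gained a call (1.09, adjusted p = 0.0258), and its adjusted p ranged from 0.0258 to 0.772. An unadjusted p under 0.05 was reached by Nkd2 in 18, Ccnd1 in 16, Znrf3 in 7 and Axin2 in 3 of the 19. Nkd2 missed it with the silent-gene level subtracted and all libraries kept (edgeR unadjusted p = 0.144). Tcf7 and Rnf43 gave no value under a filter of 50 counts.

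Over all genes, the count past an adjusted p of 0.05 was 0 in the fit reported, 337 with DESeq2, 1206 with no filter on low counts, 1 with subtraction but without DMSO replicate 1, and 0 to 2 with 1 library left out. Genes with an unadjusted p under 0.05 were 2699, 4790 with no filter, 1448 without replicate 1 of both groups, and 821 to 4628 with 1 library left out. The lowest of these was without LGK-974 replicate 3 and the highest without DMSO replicate 3. Genes without overlap between groups were 3617, 7061 without replicate 1 of both groups, 5471 with subtraction but without DMSO replicate 1, and 4484 to 9213 with 1 library left out, where fewer samples make overlap rarer. Of the genes with an unadjusted p under 0.05, 46.6% were higher with LGK-974, against 65.0% with limma-voom, 29.2% with no filter, 64.7% without DMSO replicate 1 and 36.5% with the replicate block. With no filter the median log2 fold change of all genes was −0.55.

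In a fit with a block for replicate number, 0 genes passed the adjusted threshold and 3312 had an unadjusted p under 0.05. The block gave −0.69 for Axin2, 1.06 for Nkd2, −0.45 for Znrf3, whose unadjusted p was then over 0.05, and 0.73 for Ccnd1. LGK-974 replicate 2 correlated less with DMSO replicate 2 (−0.04) than with DMSO replicate 3 (0.09).

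Depth limits Tcf7 and Rnf43, with at most 78 counts in a library, and 3 mice a group cannot reach an exact p under 0.1.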
